A study of Mus musculus with 4 samples.

Results

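The 50 genes described here encode the actin cytoskeleton: the actin subunits, the proteins that bind, nucleate, cap, cut, bundle or pull actin filaments, and those that tie filaments to membranes and adhesion sites. They were taken from a list of symbols that was chosen with earlier results of these data known. The symbols were matched to gene identifiers through the transcript names of the deposited tables. All 50 symbols were found, as 51 gene entries of 55536, because Myl12b has 2 entries in the annotation. RNA selected by polyA was sequenced from macrophages that were grown in culture from the bone marrow of C57BL/6J mice (BMDM), in 1 group of 4 libraries. According to the descriptions, the cells of every library received Lipid A, the TLR4-binding part of lipopolysaccharide. Lipid A was given at 100 ng/mL for 12 h, then washed out for 12 h, then given at 100 ng/mL for 60 min. Other label fields instead give the agent as lipoprotein A and mention no washout, so the labels disagree on both. No genetic change is named in the labels, sex and age were not collected, and all 4 libraries carry the same donor record, so p-values measure only the spread between these libraries, which may be technical. Untreated cells and cells exposed once are not analysed here, so a level below is not a response to Lipid A.

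Actin exists as single subunits and as polar filaments that grow mainly at the barbed end. Thymosins and profilin hold the subunits, the Arp2/3 complex starts branches when WASP-family proteins activate it, capping proteins stop growth, and cofilin, gelsolin and coronins take filaments apart. Macrophages use this machinery to crawl, ruffle, engulf particles and form adhesions called podosomes.

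The libraries held 23167140 to 41453162 expected counts on genes. The labelled cell type was checked against marker genes: all 8 macrophage markers were at 1 TPM (a transcript abundance scaled for length and to 1 total per library) or more in each library, with a summed level of 16692 to 19219 TPM. Muscle markers summed to 1.13 to 1.40 TPM, with Acta1 and Actc1 at 0, stromal markers to 0.15 to 3.50 TPM, and T-cell markers to 0.18 to 0.96 TPM. B-cell markers summed to 1.65 to 6.63 TPM, nearly all of it Cd79b. Neutrophil markers summed to 125, 12.7, 98.3 and 12.1 TPM in replicates 1 to 4, mostly S100a8 and S100a9, with Ly6g at 0. Platelet markers summed to 270.2, 155, 301 and 139 TPM, nearly all of it Pf4. Ribosomal RNA genes held 7.29% of TPM in replicate 1 and 1.51% to 2.91% in the others. Mitochondrial genes held 1.94%, 2.80%, 4.78% and 4.00% in replicates 1 to 4. Replicates 1 and 2 were each made from 6 read files and replicates 3 and 4 from 4, the only technical split in the records.

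Messages for several of these proteins come from genes of nearly the same sequence, which sets how far a level can be credited to 1 gene. The first 90 coding bases of the cytoplasmic actins are shown because Actb and Actg1, whose coding parts are both 1128 bases, differed at 128 of them, or 11.4%. Capitals mark the bases where the pair differs, 16 of the 90 shown, and the sequences come from GENCODE M21 transcripts on the mm10 build.
Actb (chr5:142903115-142906754, minus strand): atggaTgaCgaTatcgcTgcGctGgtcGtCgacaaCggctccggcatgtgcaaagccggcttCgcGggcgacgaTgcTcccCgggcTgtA
Actg1 (chr11:120345690-120348542, minus strand): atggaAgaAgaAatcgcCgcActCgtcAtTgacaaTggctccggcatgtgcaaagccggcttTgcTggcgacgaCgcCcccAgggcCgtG

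The next set is shown because a pseudogene on another chromosome carries the same start. Over these 90 bases Actg1 and the processed pseudogene Gm12715 differed at 0, so no capitals appear.
Actg1-202: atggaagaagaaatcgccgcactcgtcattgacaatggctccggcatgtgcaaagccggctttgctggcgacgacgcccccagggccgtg
Gm12715-201 (chr4:103563402-103564529, plus strand): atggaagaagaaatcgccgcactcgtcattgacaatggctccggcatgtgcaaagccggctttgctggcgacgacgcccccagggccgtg

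The thymosins Tmsb4x and Tmsb10 differed more from each other than Actb and Actg1 did, and are given whole. Their coding parts are both 135 bases and differed at 40, or 29.6%, in capitals.
Tmsb4x (chrX:167207093-167209315, minus strand): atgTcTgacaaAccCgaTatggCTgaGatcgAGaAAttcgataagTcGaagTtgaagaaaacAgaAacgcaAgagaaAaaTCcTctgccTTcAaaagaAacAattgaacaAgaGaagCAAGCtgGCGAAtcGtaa
Tmsb10 (chr6:72957347-72958748, minus strand): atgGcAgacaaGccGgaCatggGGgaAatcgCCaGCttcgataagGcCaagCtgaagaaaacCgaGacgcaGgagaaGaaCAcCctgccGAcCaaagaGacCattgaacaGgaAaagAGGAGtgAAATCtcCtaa

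The regulatory light chains of myosin II are shown because 1 of the entries named Myl12b reads like Myl12a. That entry, ENSMUSG00000117098.1, is not a separate stretch of the chromosome. It overlaps both Myl12a and the other Myl12b entry on the same strand. The coding part, 519 bases in each, differed from that of Myl12a-208 at 1 base in Myl12b-206 and at 18 in Myl12b-204, and capitals mark differences from Myl12a-208 in the first 90.
Myl12a-208 (gene at chr17:70993656-71002878, minus strand): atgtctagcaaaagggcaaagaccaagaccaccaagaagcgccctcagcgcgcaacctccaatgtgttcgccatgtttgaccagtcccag
Myl12b-206 (gene at chr17:70974119-71002208, minus strand): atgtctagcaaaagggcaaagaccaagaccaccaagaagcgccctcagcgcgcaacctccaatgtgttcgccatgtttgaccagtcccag
Myl12b-204 (gene at chr17:70973133-70990890, minus strand): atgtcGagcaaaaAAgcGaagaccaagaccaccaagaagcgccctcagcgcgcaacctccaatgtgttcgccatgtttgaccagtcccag

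Actin cytoskeleton messages were abundant. Together they held 4.73%, 4.13%, 4.30% and 3.96% of all TPM in replicates 1 to 4, or 4.28% ± 0.331 (SD, n = 4). All 51 entries were at 1 TPM or more in each library, though the list was chosen with earlier results of these data known. Of them 34 were at 100 TPM or more in each library, against 10.5% of the 10407 genes that reached 1 TPM in each. The median of log2(TPM + 0.1) over the members was 8.30, 8.07, 8.24 and 7.93, and over those 10407 genes it was 3.95, 4.17, 4.16 and 4.08. Tmsb4x, Actb, Tmsb10, Pfn1 and Actg1, singled out after their values were seen, held 64.3% ± 1.84 (SD, n = 4) of the members' TPM, and 7 members were among the 100 genes of highest mean TPM.

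**Figure D1:**
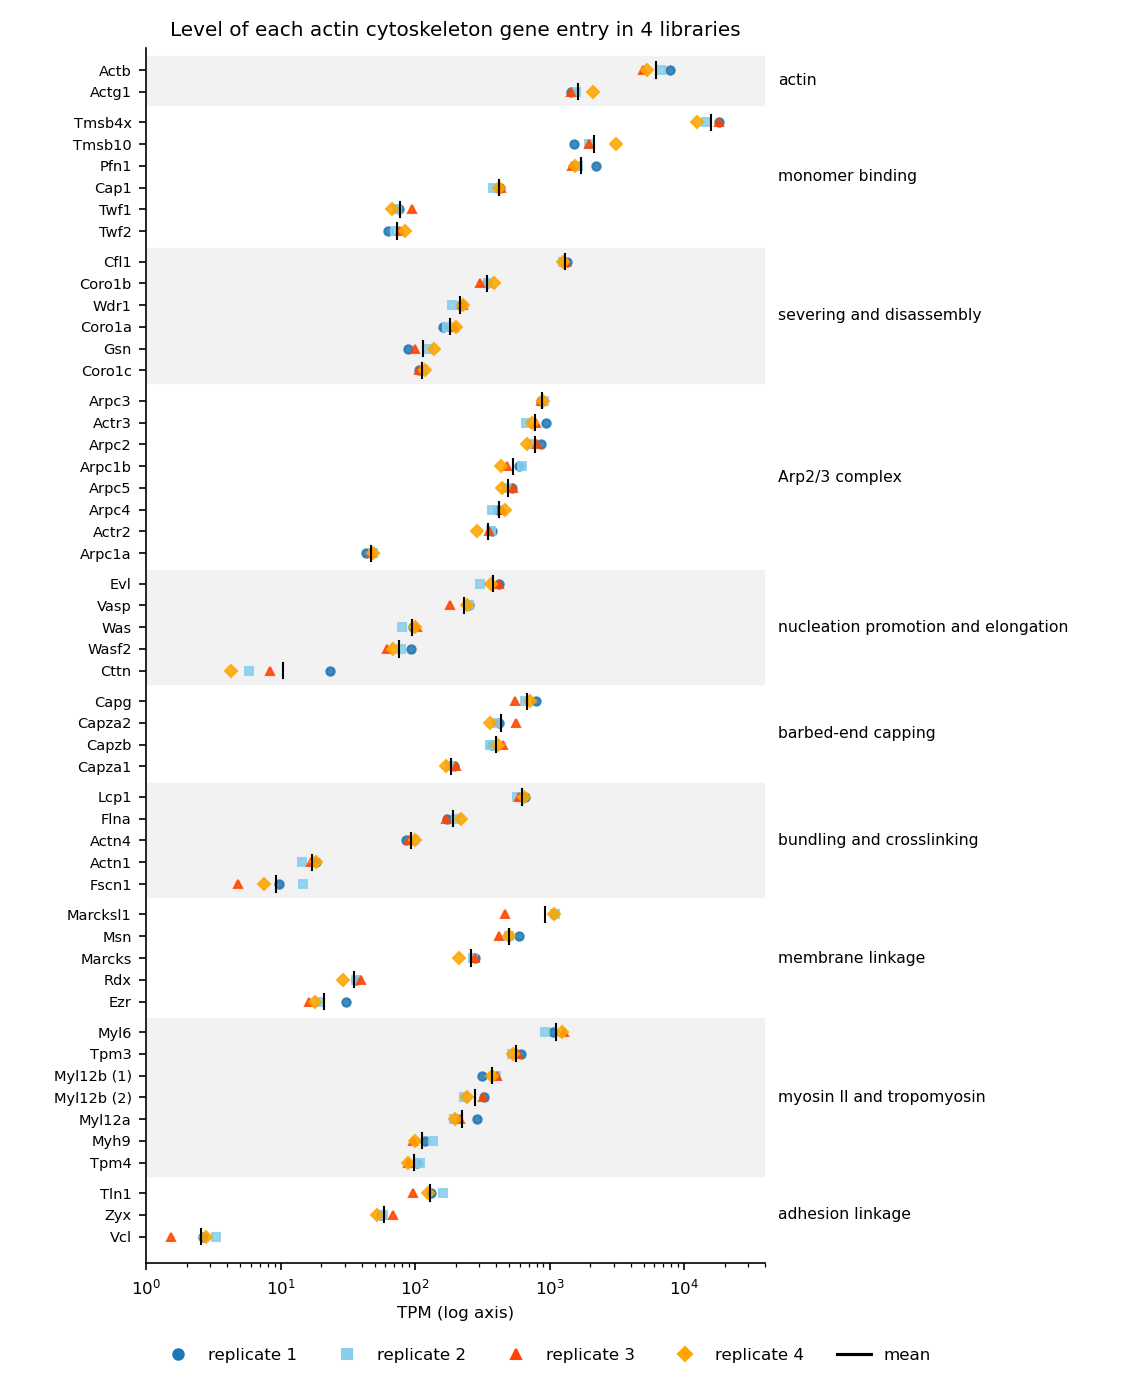
Level of each of the 51 gene entries by role, in TPM on a log axis; each symbol is 1 of the 4 libraries and the black bar is their mean. Levels run from Vcl, with a mean of 2.56 TPM, to Tmsb4x, with a mean of 15848 TPM; Myl12b (1) is ENSMUSG00000034868.9 and Myl12b (2) is ENSMUSG00000117098.1.

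Of the subunits, Actb, cytoplasmic beta-actin (ENSMUSG00000029580.14), had 7873, 6720.3, 4978 and 5273 TPM in replicates 1 to 4. Replicates 1 and 2 were above replicates 3 and 4, by a log2 difference that edgeR's quasi-likelihood test did not call (-0.58, adjusted p = 0.756). A second quantification of the same reads, described below, gave Actb 5543, 4154, 4679 and 4702 TPM. Replicate 2 was lowest there, so that order depends on the quantification. Actg1, cytoplasmic gamma-actin (ENSMUSG00000062825.15), had 1441, 1572, 1451 and 2095 TPM, highest in replicate 4. Actb exceeded Actg1 in every library, by a log2 ratio of 2.45, 2.10, 1.78 and 1.33 in replicates 1 to 4, and together they had 7851 ± 1237 TPM (SD, n = 4). The muscle actins were at or near the floor: Acta1, Actc1 and Actg2 had no count, and Acta2 of smooth muscle had 0.38, 0.47, 0.48 and 0.37 TPM. In bulk RNA, fewer cells of a type and less RNA per cell cannot be told apart.

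The proteins that hold actin subunits carried the highest and some of the lowest levels of the list. Tmsb4x, thymosin beta-4, which sequesters subunits, had 18191, 14565, 18207 and 12427 TPM, higher in replicates 1 and 3 than in 2 and 4. The neutrophil and platelet marker sums given above, mostly S100a8, S100a9 and Pf4, were higher in the same libraries. The part of such cells in the Tmsb4x level was not tested. Tmsb10, thymosin beta-10 of the same family, had 1519, 1975, 1950.1 and 3114 TPM, with replicate 4 highest, so the log2 ratio of Tmsb4x to Tmsb10 was 3.58, 2.88, 3.22 and 2.00, a mean of 2.92 ± 0.679 (SD, n = 4). Pfn1, profilin 1, which recharges subunits with ATP and hands them to growing ends, had 2205, 1624, 1471 and 1546 TPM, highest in replicate 1. Cap1, which helps recycle subunits from cofilin, had 417 ± 26.3 TPM. The twinfilins, which bind subunits and capping protein, were the lowest of the class and could not be ordered. Twf1 had 76.3, 72.9, 94.0 and 67.4 TPM and Twf2 had 62.3, 70.6, 76.7 and 83.4 TPM. Twf2 was the lower in replicates 1 to 3 and the higher in replicate 4, with a mean log2 ratio of -0.08 ± 0.284 (SD, n = 4). Pfn2, the other profilin measured against Pfn1, had 0.39, 1.43, 1.02 and 1.55 TPM.

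Among the proteins that cut or dismantle filaments, Cfl1, cofilin 1, was the highest. It had 1346, 1267, 1334 and 1263 TPM, a coefficient of variation of 3.35%, and an SD of 0.189 on the log2 CPM scale. Its relatives were lower: the muscle cofilin Cfl2 had 16.5, 15.7, 18.8 and 16.4 TPM, and destrin, Dstn, had 99.8, 104, 162 and 125 TPM. Cfl1 exceeded Cfl2 by a log2 ratio of 6.27 ± 0.0889 and Dstn by 3.43 ± 0.313 (SD, n = 4). Wdr1, a cofactor of cofilin, had 215 ± 18.5 TPM. Coronins, which bind filaments and act with cofilin and Arp2/3, were ordered alike in all 4 libraries: Coro1b had 344 ± 33.6, Coro1a, the form typical of blood cells, 182 ± 19.4, and Coro1c 112 ± 6.19 TPM. Coro1c was the lowest of the class, with 108, 115, 106 and 119 TPM, and its range lay within that of Gsn. Gsn, gelsolin, a calcium-activated severing protein, had 88.7, 128, 98.9 and 139 TPM, higher in replicates 2 and 4. In the second quantification it had 65.4, 82.2, 95.6 and 126 TPM, with replicate 3 above replicate 2.

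The Arp2/3 complex is built from 7 kinds of subunit, and 8 genes for it were on the list because the Arpc1 position can be filled by either of a pair. Arpc3 was the highest, with 863, 911, 858 and 897 TPM. Actr3 (783 ± 112 TPM), Arpc2 (774 ± 82.5 TPM) and Arpc3 overlapped across libraries, as did Arpc1b (533 ± 90.1), Arpc5 (494 ± 40.8) and Arpc4 (421 ± 40.8 TPM). Actr2, the partner of Actr3 in the nucleating pair, was lower at 346 ± 37.8 TPM, and Actr3 exceeded it in each library by a log2 ratio of 0.88 to 1.34. The alternatives were far from equal. Arpc1b had 591, 624, 484 and 432 TPM, and Arpc1a, its neighbour on the same strand (chr5:145083830-145108761 against chr5:145114215-145130705 for Arpc1b), had 43.1, 48.8, 47.1 and 48.5 TPM. The mean log2 ratio of Arpc1b to Arpc1a was 3.49 ± 0.287 (SD, n = 4), an 11.2-fold difference. Arpc5 had 522, 478, 532 and 444 TPM, and its alternative Arpc5l had 34.4, 51.8, 50.3 and 44.1 TPM, a log2 ratio of 3.46 ± 0.314. Actr3 had 937, 673, 786 and 737 TPM, while Actr3b had 0.46, 0.40, 0.95 and 0.73 TPM.

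Genes for starting and extending filaments were lower and held the most variable member. Evl, of the Ena/VASP family that speeds growth at barbed ends, was the highest, with 419, 302, 418 and 368 TPM. Its relative Vasp had 249.6, 251, 183 and 243 TPM and Enah, the third of the family, had 0.03, 0.29, 0.70 and 0.45 TPM. Was, the WASP activator of Arp2/3 found in blood cells, had 95.9, 79.6, 104 and 99.1 TPM, against 4.18, 6.65, 6.37 and 4.73 TPM for the widely expressed Wasl, a log2 ratio of 4.10 ± 0.415. Wasf2, the WAVE2 activator, had 75.3 ± 14.0 TPM and was below Was in each library, by a log2 ratio of 0.02 to 0.76. Cttn, cortactin, which binds and steadies Arp2/3 branches, had 23.2, 5.81, 8.37 and 4.30 TPM. Replicate 1 stood above the rest, with 1092 expected counts against 240.0, 648 and 280.0 in replicates 2 to 4.

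Capping proteins stop growth at the barbed end. Capg, a relative of gelsolin that caps without cutting, had 798, 657, 556 and 716 TPM, above Gsn by a log2 ratio of 3.17, 2.36, 2.49 and 2.36. The capping protein proper is a pair of an alpha and a beta subunit: Capzb, the beta subunit, had 400 ± 41.1 TPM (SD, n = 4). Of the alpha subunits, Capza2 had 437 ± 88.2 TPM and Capza1, the lowest of the class, had 194, 181, 199.9 and 169 TPM. Capza2 was above Capza1 in all 4 libraries, by 2.32-fold on the mean log2 ratio.

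Bundling and crosslinking proteins covered a wide range. Lcp1, L-plastin, the bundler of blood cells, had 660, 574, 596 and 648 TPM, whereas Pls3, T-plastin, had 1.88, 3.29, 2.31 and 1.92 TPM. Fscn1, fascin, which packs filaments into spikes, was the lowest, with 9.79, 14.7, 4.79 and 7.49 TPM. Of the alpha-actinins, Actn4 had 85.8, 97.4, 89.8 and 101 TPM and Actn1 had 18.4, 14.5, 16.7 and 18.4 TPM, a log2 ratio of Actn1 to Actn4 of -2.45 ± 0.215 (SD, n = 4). Flna, filamin A, which joins filaments at angles, had 172, 201, 169.8 and 218 TPM, higher in replicates 2 and 4. In the second quantification, given below, replicate 3 was above replicate 2.

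The ERM proteins tie filaments to the membrane, and moesin was the main form by message. Msn had 587, 495, 418 and 503 TPM, radixin, Rdx, had 36.1, 36.3, 39.3 and 28.8 TPM, and ezrin, Ezr, had 30.7, 19.4, 16.2 and 18.0 TPM. The mean log2 ratio of Msn was 4.60 ± 0.239 to Ezr and 3.83 ± 0.318 to Rdx. Rdx was above Ezr in all 4 libraries, by a log2 ratio of 0.23 in replicate 1 and 0.68 to 1.27 in the others. The MARCKS proteins bind membrane lipids and actin and leave the membrane when protein kinase C acts on them. Marcksl1 was the highest of the class, with 1073, 1101, 466 and 1083 TPM. Replicate 3 was low by itself. Marcks had 278, 269, 278 and 212 TPM, with replicate 4 low, so the log2 ratio of Marcksl1 to Marcks was 1.95, 2.03, 0.75 and 2.35. Replicate 3 also had the highest mitochondrial and the lowest ribosomal RNA share given above, whose part in this was not tested.

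Myosin II pulls on filaments and tropomyosins coat them. Myl6, the essential light chain, was the highest of the class, with 1054, 919, 1278 and 1242 TPM. Myh9, the heavy chain of non-muscle myosin IIA, had 119, 136, 96.4 and 99.6 TPM, against 1.07, 1.55, 2.51 and 1.03 TPM for Myh10 of myosin IIB, a log2 ratio of 6.18 ± 0.659 (SD, n = 4). Tpm3 had 616, 521, 579 and 530.4 TPM and Tpm4, the lowest of the class, had 104, 109, 89.0 and 89.0 TPM. The regulatory light chain Myl12a had 225 ± 43.3 TPM. Myl12b as ENSMUSG00000034868.9 had 314, 402, 403 and 371 TPM and as ENSMUSG00000117098.1 had 327, 231, 317 and 242 TPM. Myl12a and both Myl12b entries together had 929.8, 828, 937 and 812 TPM.

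Of the proteins that link filaments to integrin adhesions, Tln1, talin 1, was the highest, with 132, 160.1, 96.1 and 124 TPM. Its relative Tln2 had 0.01, 0.26, 0.11 and 0.10 TPM. Zyx, zyxin, had 58.4 ± 6.96 TPM. Vcl, vinculin, which reinforces talin under load, was the lowest of all members, with 2.63, 3.33, 1.52 and 2.77 TPM, from 225 to 342 expected counts.

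**Figure D2:**
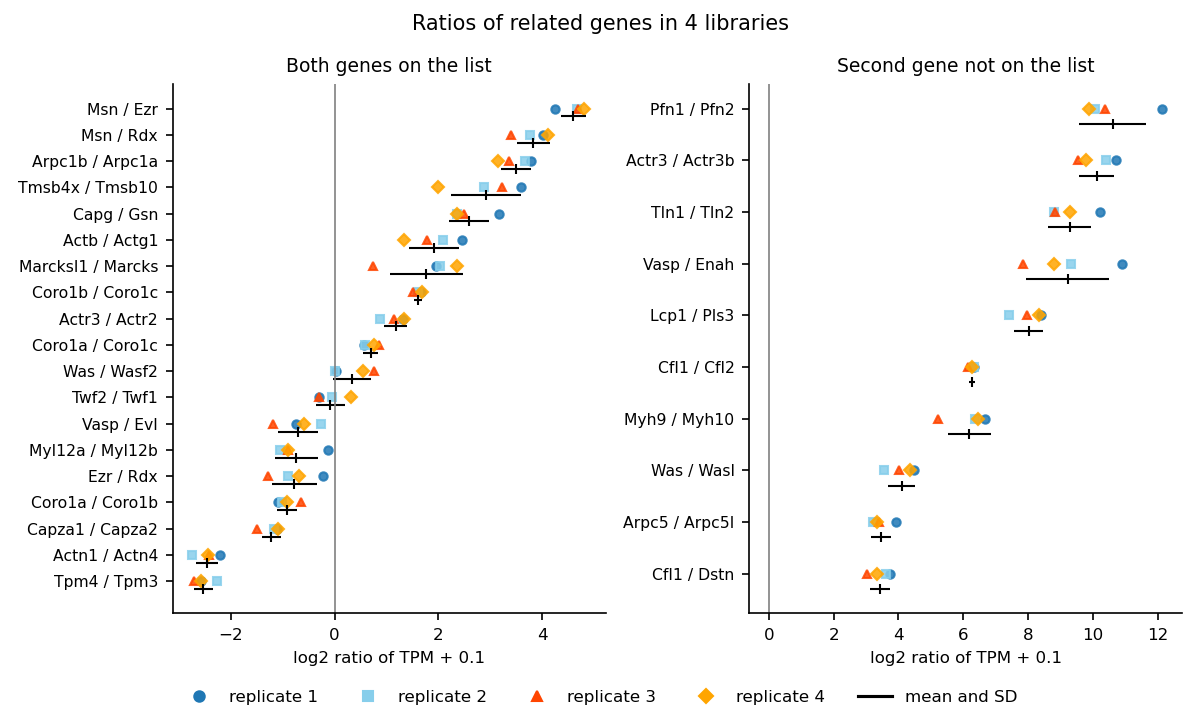
Log2 ratio of TPM + 0.1 for 29 pairs of related genes, 19 with both genes on the list (left) and 10 with a relative that is not (right); symbols are the 4 libraries, and the bar below each row of symbols is the mean with its SD. All pairs but Twf2 over Twf1 had the same sign in all 4 libraries.

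The pairs were tested together. Of 29 ratios, 28 had 1 sign in all 4 libraries and 17 were at least 4-fold on the mean log2 scale. The 17 were 7 of the 19 pairs of members and all 10 pairs of a member and a relative not on the list. Because the lists were chosen with earlier results of these data known, these counts are not independent of the values. Where a relative was under 1 TPM the ratio understates the difference, because of the 0.1 added. With 4 libraries an exact sign-flip test, two-sided, cannot go below p = 0.13, which was reached by those 28 pairs (also 0.13 after Benjamini-Hochberg adjustment over all 29). For Twf2 over Twf1 the exact p was 0.625.

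Differences between the libraries were mostly under 1.5-fold. The highest library was under 1.5 times the lowest for 40 of 51 entries and at least 2 times for 5, Tmsb10, Cttn, Fscn1, Marcksl1 and Vcl. Both counts are given for the members alone, with no share over all genes beside them. The SD of log2 CPM (counts scaled to library size and between libraries) had a median of 0.24 over the members. It was 0.23 over all 11679 genes tested, and 0.20 over the 1091 of these at 100 TPM or more in each library. By this median the members were not steadier than either set. Cttn was the 1 member called more variable than genes of like abundance by edgeR's deviance test against the trended dispersion (adjusted p = 6.35e-08), against 2.61% of all genes tested. Its SD of log2 CPM was 1.13, and without replicate 1 its adjusted p was 0.994 and 0 members were called. Ribosomal RNA was also highest in replicate 1, and its part in the Cttn level was not tested. Fscn1, Ezr and Marcksl1 had unadjusted p-values of 0.0202, 0.00966 and 0.00888 in the edgeR test and adjusted ones of 0.356, 0.221 and 0.207. In all, 4 member entries were under 0.05 unadjusted, against 7.79% of all genes tested.

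**Figure D3:**
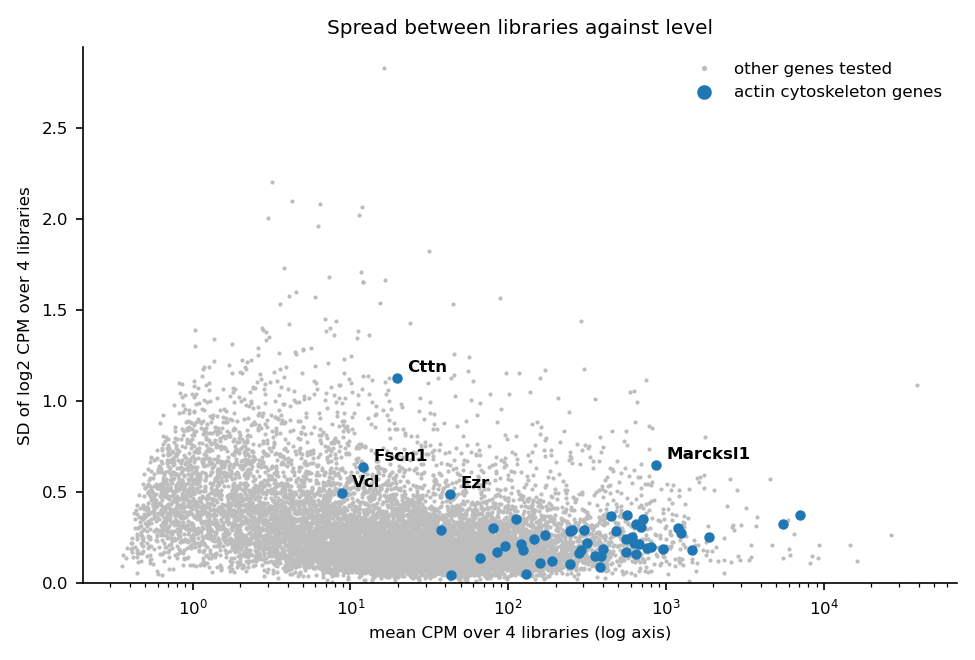
SD of log2 CPM over the 4 libraries against mean CPM on a log axis, for the 51 member entries (blue) and all other genes tested (grey). Cttn, at 1.13, stands above the other members, of which Marcksl1, Fscn1, Vcl and Ezr are also named.

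The read-file sets were compared gene by gene, replicates 3 and 4 against 1 and 2. By edgeR's quasi-likelihood test 0 members were called at an adjusted p up to 0.05, against 0.00% of 12667 genes, and DESeq2's Wald test called 0 members and 103 of all genes. Unadjusted p-values were under 0.05 for 2 members, against 7.08% of all genes. These were Fscn1, with a log2 difference of -0.97 (edgeR adjusted p = 0.636), and Arpc1b, with one of -0.64 (edgeR adjusted p = 0.641), both lower in replicates 3 and 4. The difference had a median of -0.15 over the members and 0.03 over all genes. With 2 libraries a side, the read files and any other difference between the libraries of the sets cannot be told apart.

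The leading transcript of each entry kept its place in the first quantification. The 51 entries have 359 annotated transcripts. The transcript with the highest share of its gene's TPM was the same in every library for all 51 in the first quantification, and held 90% or more in each library for 26. In 50 it was protein coding. The exception was Myl12b as ENSMUSG00000034868.9, led by the 369-base retained-intron transcript Myl12b-202 at 57.0%, 62.5%, 65.9% and 61.4%, ahead of the protein-coding Myl12b-204 at 21.7% to 27.2%. The leading transcript held under 50% on average for 2 entries: Cap1, whose Cap1-201 and Cap1-203 had 40.0% and 30.3%, and Evl, whose Evl-206 and Evl-207 had 40.4% and 38.0%. In the second quantification the leader was the same in every library for 48 of 51. Cap1, Evl and Rdx were the exceptions, and the leader by mean share was the same transcript as in the first for all 51. These counts are given for the members alone, with no share over all genes beside them.

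Some shares nevertheless separated the libraries by read-file set. Shares were called apart where the sets did not overlap and their means differed by at least 10 percentage points, a rule set after the values were seen, among genes of 2 or more transcripts at 10 TPM or more in each library. In the first quantification 8 of 46 members had such a transcript, against 19.9% of all 5582 genes. In the second it was 10, against 28.5%, and in both, with the same direction, 5, against 10.3%, so the members' shares were near the background. The 5 were Rdx, Actn4, Capg, Arpc4 and Wdr1.

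Rdx-203 took 58.1%, 67.6%, 83.1% and 83.1% of Rdx in replicates 1 to 4 in the first quantification and 35.8%, 56.2%, 74.9% and 73.6% in the second. Actn4-201 took 65.5%, 62.3%, 48.8% and 45.2% of Actn4 in the first, with the rest mainly in the non-coding Actn4-206. Capg-201 took 22.6%, 21.9%, 5.46% and 5.93% of Capg. Rdx-203 was thus higher, and Actn4-201 and Capg-201 lower, in replicates 3 and 4, in both quantifications. Arpc4-204 took 48.2%, 50.6%, 65.2% and 65.4% of Arpc4 in the first, and Arpc4-203 took 23.0%, 24.0%, 9.75% and 8.46%. Wdr1-205 was at 0.30% and 0.70% of Wdr1 in replicates 1 and 2 and at 17.4% and 16.7% in replicates 3 and 4 in the first, and at 9.15%, 3.61%, 33.2% and 36.3% in the second. Myl12b-205 took 13.1%, 20.1%, 27.5% and 27.5% of its Myl12b entry in the first, where the groups did not overlap, and 15.7%, 21.2%, 22.2% and 21.1% in the second, where they did.

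In the first quantification alone, Capza2-206, a 517-base transcript, was at 0 in replicates 1 and 2 and at 19.7% and 15.8% in replicates 3 and 4. In the second it was at 19.1%, 18.4%, 20.7% and 22.6%, with no such gap. Cfl1-204 was at 0.55%, 0.44%, 17.1% and 9.77% in the first and at 10.4%, 11.3%, 22.4% and 19.1% in the second. For Cfl1-204 the sets did not overlap in the second either, but their means differed by 9.89 points, just under the limit of 10. The mean fragment length that each quantification used, read as length minus effective length plus 1 over transcripts of 5000 bases or more, also followed the sets. Its median was 258, 259, 279 and 281 bases in replicates 1 to 4 in the first and 265, 269, 236 and 238 bases in the second. The sets thus differed in opposite directions between quantifications, and the part of fragment length in the shares was not tested.

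**Figure D4:**
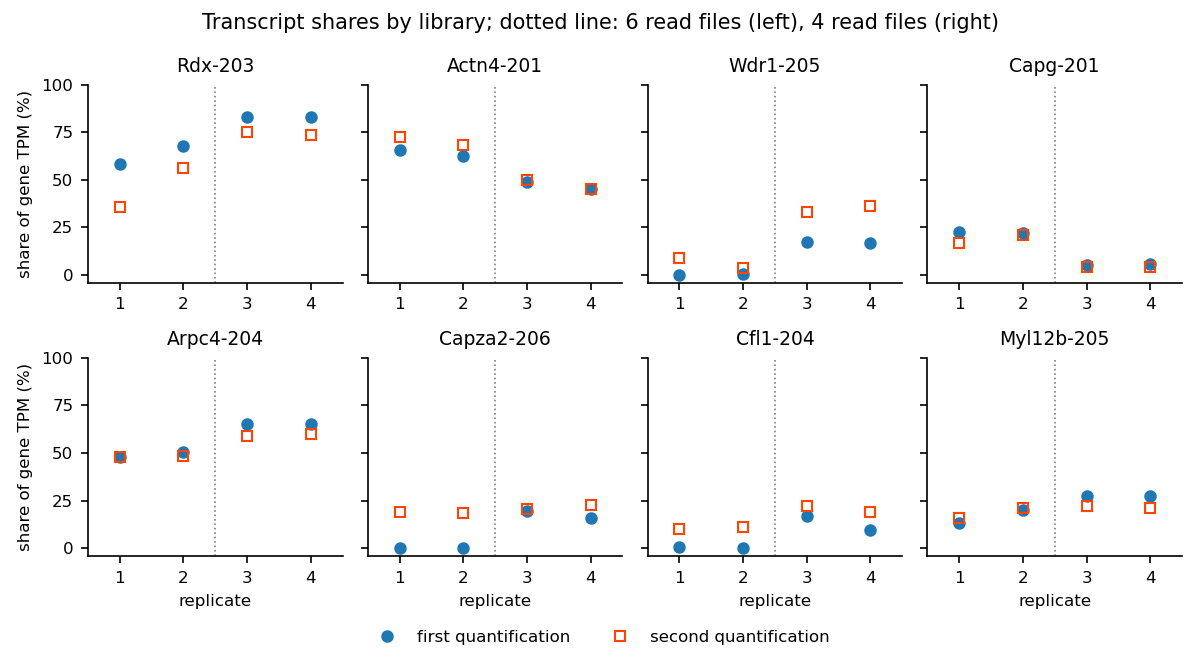
Share of each named transcript in its gene's TPM, in percent, by replicate, in the first (blue circles) and second (orange squares) quantification; the dotted line separates libraries of 6 read files from those of 4. Rdx-203 stands at 83.1% right of the line in the first quantification, and Capza2-206 is at 0 left of the line in the first quantification but at 19.1% and 18.4% in the second; Myl12b-205 belongs to ENSMUSG00000117098.1.

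The same reads had been quantified a second time directly on transcripts, which shows where a level depends on how reads were assigned. Most levels were lower in the second, those of 50 of 51 members and of 84.0% of all genes. The median log2 difference of TPM + 0.1, second minus first, was -0.29 over 12300 genes and -0.34 over the members. These values are means over libraries, and the shift was not even between libraries for every member. Cap1 had 430, 379, 438 and 423 TPM in the first and 309, 232, 408 and 368 TPM in the second, falling more in replicates 1 and 2. Coro1b fell about evenly, with an SD of its log2 difference of 0.075. Only Flna, of the members, was called by limma at an adjusted p up to 0.05 and a difference of at least 1.5-fold, against 13.5% of all genes. Flna had 83.1, 88.4, 99.4 and 127 TPM in the second. Its log2 difference was -0.95 ± 0.204 (SD, n = 4, limma adjusted p = 1.47e-09), larger in size than the median over all genes. In the first, the non-coding Flna-215, 738 bases long, took 27.6%, 25.4%, 29.5% and 27.7% of Flna, and 91.2% of its 31-base windows also occur in the full-length Flna-202. In the second, Flna-215 had 0, 0.137%, 6.69% and 0.

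Shared sequence was measured as well. Of the members' leading transcripts, 17 had no 31-base window in any other gene's transcripts, and 9 shared more than 50% of theirs. The highest were Myl12b-206 at 100%, mostly with Myl12a, Capza1-201 at 80.3%, mostly with the pseudogene Gm3608, and Tpm3-201 at 75.7%, mostly with Tpm3-rs7. Next was Tmsb10-203 at 73.7%, mostly with Gm9844. Capza1 differed between quantifications by -0.33 and Tpm3 by -0.33, close to the median of all genes. The copies themselves differed more: Gm12715, whose start is printed above beside that of Actg1, had 40.0, 47.1, 55.0 and 71.2 TPM in the first and a mean of 0.446 TPM in the second. Tpm3-rs7 had a mean of 8.20 TPM in the first and 0.855 in the second, and Gm9844, the gene closest to Tmsb10, had 17.1 and 0.664 TPM. Beside them, Actg1 had a mean of 1639.7 TPM, Tpm3 of 562 and Tmsb10 of 2139 TPM in the first.

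**Figure D5:**
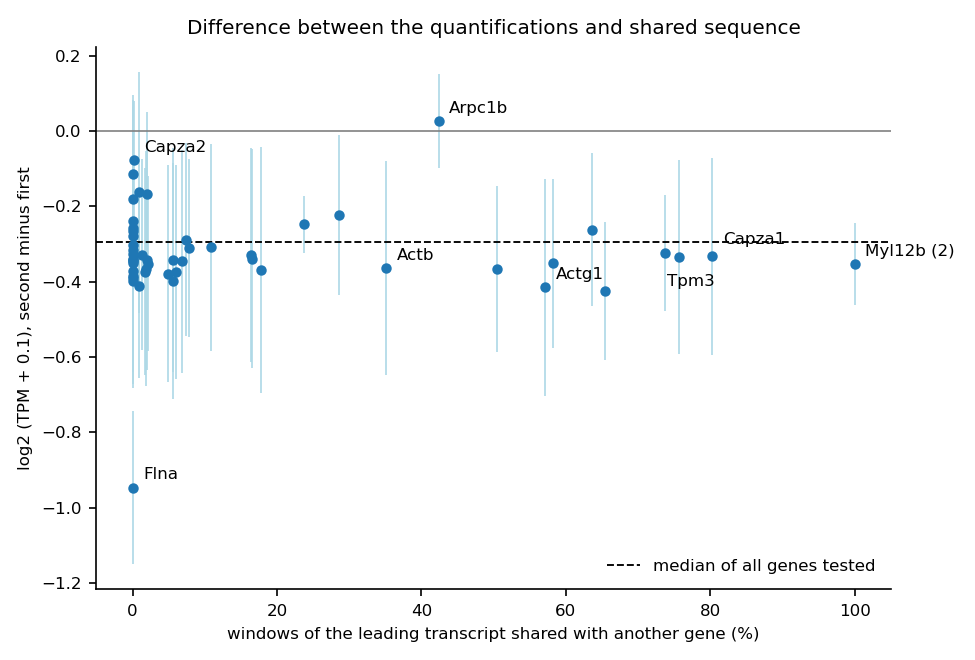
Log2 difference of TPM + 0.1 between the second and first quantification for the 51 member entries (mean and SD over 4 libraries) against the percentage of 31-base windows in the leading transcript that occur in another gene. The dashed line is the median of all genes tested, -0.29; Flna, at -0.95, lies far below it with no shared window.

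Around these members, 95 other genes of actin regulation were read from a list. Of them 68 were at 1 TPM or more in each library, 22 were at 100 TPM or more, and 6 were at 0 in all 4. Of the 74 that edgeR tested, 1 was called variable, Lsp1. The most abundant were Aif1, a filament bundler of macrophages also called Iba1, at 1100 ± 149.7 TPM (SD, n = 4), Arhgdib, an inhibitor of small GTPases in blood cells, at 935 ± 180.0 TPM, and the GTPase Cdc42 at 726 ± 74.7 TPM.

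Aif1 had 1150, 1023, 1285 and 942 TPM in replicates 1 to 4. Arhgdib had 730, 849, 1032 and 1131 TPM, and Cdc42 had 703, 633, 807 and 759.5 TPM. Rac2, the Rac GTPase of blood cells, had 559, 637, 827 and 657 TPM. In TPM each of Arhgdib, Cdc42 and Rac2 was highest in replicate 3 or 4. In CPM Rac2 was instead highest in replicate 1, with 818, 675, 706 and 688. Arhgdia had 526, 539, 609 and 632 TPM. Cotl1, a coactosin that binds filaments, had 536, 463, 492 and 508 TPM, and Plek, pleckstrin, had 505, 530, 418 and 539 TPM. Hcls1, the blood-cell relative of cortactin, had 450.4, 423, 461 and 465 TPM, far above Cttn in each library. Rhog had 446, 413, 469 and 458 TPM and Rhoa, which activates myosin II through its kinases, had 301, 316, 316 and 353 TPM.

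Lsp1, a filament-binding protein of leukocytes, had 11.8, 39.5, 20.0 and 72.0 TPM (edgeR adjusted p = 3.44e-08). It was higher in replicates 2 and 4, as Gsn was in the first quantification only. Srf and its cofactors Mrtfa and Mrtfb, which switch on many actin genes when free subunits run low, had 13.8 ± 1.19, 27.4 ± 7.10 and 9.99 ± 1.32 TPM.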

How the data were processed

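Expression was measured by polyA RNA-seq in 4 libraries of 1 group. For each library the authors deposited a gene table and a transcript table with, per the file headers, an expected count (not normalised) and TPM, and in the transcript table each transcript's share of its gene in percent. This is called the first quantification. A further deposited transcript table, the second quantification, holds an estimated count and TPM. The deposited records name mm10 and GENCODE M21, derive the first from alignments and the second from read files, and the programs are not given in the sources used here.

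The members and lists were chosen with earlier results of these data known. Counts were rounded and fitted over all genes in edgeR 4.0.16 (filterByExpr, TMM normalisation): the deviance over libraries against the trended dispersion, and the quasi-likelihood test between read-file sets. Both used Benjamini-Hochberg adjustment at 0.05, with DESeq2 1.42.0 as an alternative. Second minus first log2(TPM + 0.1) was tested by limma 3.58.1 (trend) over genes at a mean of 1 TPM or more. Pairs were tested by an exact sign-flip test in Python. Second-quantification transcripts were summed per gene. The fits were run on simulated data with independent noise in each library. That run does not cover noise shared by the libraries of a read-file set. A count of 0 allows up to 3 counts, 0.0724 to 0.129 CPM by library, and covers counting error only, since PCR reads are not independent molecules.

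Values in every library are given for the highest and lowest member of each role class. They are also given for both genes of pairs at least 4-fold apart or of changing sign, for members called by a test, and for members whose leading transcript is not protein coding. From the wider list of 95 actin genes (1 further gene is not reported here), the 10 highest, those called variable and those paired with a member are given. The 519-, 1128- and 135-base coding parts were cut from GENCODE transcripts by the annotation. Where Myl12b enters a ratio, ENSMUSG00000034868.9 was used. Protein sequences were not used here.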

Additional observations from a re-analysis of the deposited data

Results flagged for a closer look

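In 80 sets of 4 libraries, the 51 member levels and 29 ratios, 6 had a single library farther from the other 3 than a 95% limit for the gap allows. Chance flags about 1 in 20 such sets.

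Marcksl1 had 466 TPM in replicate 3 against 1073, 1101 and 1083 TPM in replicates 1, 2 and 4. Vasp had 183 TPM in replicate 3 against 249.6, 251 and 243 TPM. Marcks had 212 TPM in replicate 4 against 278, 269 and 278 TPM in replicates 1 to 3. Wdr1 had 187 TPM in replicate 2 against 221, 225 and 226 TPM.

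The log2 ratio of Capg to Gsn was 3.17 in replicate 1 against 2.36, 2.49 and 2.36 in the others. That of Myl12a to Myl12b, taken as ENSMUSG00000034868.9, was -0.12 in replicate 1 against -1.04, -0.89 and -0.90.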

How the results depend on the processing

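Of 313 values recomputed under another setting, 294 kept their direction and their side of the threshold, stayed within the spread between replicates or, for counts, stayed within 1.5 times the reported count. No paired analysis was possible because there is 1 group, so replicate numbers pair no samples across groups; the ratios and the 2 quantifications were compared within each library.

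DESeq2's dispersion trend called 2 members and 336 of all genes variable, the members being Cttn and Marcksl1 (adjusted p 0.0417 for Marcksl1 with that trend, 0.207 with edgeR's), and leaving out each replicate in turn gave 0 to 1, with 0 only without replicate 1. For Cttn the adjusted p then was 0.994, and between 6.77e-05 and 3.7e-08 over the other settings that kept all 4 libraries. The number of all genes called variable went from 305 to 135 without replicate 1 (109 of the 135 were among the 305), and to between 204 and 219 without 1 of the others.

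Between the read-file sets members called stayed at 0 under every setting run, while all genes called went from 0 to 103 by DESeq2's Wald test, 35 without the count filter and 77 on the second quantification, and to between 0 and 13 with a replicate left out. Between the quantifications 26 members and 4864 of all genes passed on adjusted p alone, against 1 and 1659 with the fold requirement, and 2679 genes passed where all genes above 0 TPM were tested.

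The direction of 3 ratios reversed when counts were not divided by length: Coro1a over Coro1c to -0.64, Vasp over Evl to 0.29 and Was over Wasf2 to -1.07. Summing both Myl12b entries, chosen after seeing the data, took the log2 ratio of Myl12a to Myl12b from -0.74 to -1.55. The leading transcript of the added entry, ENSMUSG00000117098.1, has 94.9% of its 31-base windows in Myl12a. Counting that entry with Myl12a instead was not tried, so the direction of this ratio rests on how the entry is assigned. The members' share was 3.36% of TPM in the second quantification and 3.38% of expected counts, against 4.28%, and their median level 7.84 in the second, against 8.13.

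The lowest members rest on few reads, 225 to 342 expected counts for Vcl, and 4 libraries of 1 group allow no comparison between conditions.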

Other observations

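Replicate 1 was the library farthest from the mean of log2 CPM for 23 of 51 member entries, against 32.3% of all genes tested. Replicates 2, 3 and 4 were farthest for 7, 12 and 9 entries, against 18.5%, 25.2% and 24.0%.

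Several genes of actin regulation that are typical of other tissues were at or near 0. Not all were: the muscle cofilin Cfl2 had a mean of 16.8 TPM. Actn2, the alpha-actinin of muscle, had no count in the first quantification and a mean of 0.979 TPM in the second. Tpm2 had 0.55, 0.07, 0.17 and 0.09 TPM, and Myl9, a light chain of smooth muscle myosin, had a mean of 0.01 TPM. Of the WAVE proteins related to Wasf2, Wasf1 had a mean of 0.005 TPM and Wasf3 had no count. Among the myosins outside the list, Myo1f had 221 ± 26.1, Myo5a 154 ± 44.9 and Myo1g 84.1 ± 16.6 TPM (SD, n = 4). Cyfip1, a part of the WAVE complex, had 243, 134, 106 and 105 TPM, with replicate 1 highest and an edgeR adjusted p of 0.0824.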
